A study of Mus musculus with 7 samples.

Results

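The 30 genes described here form a module of epithelial cell junctions and of the basement membrane to which epithelia are anchored. They were chosen by name, as 30 of the 20661 autosomal protein-coding genes that RefSeq annotates on GRCm38.p6, a mouse assembly. For each gene, ATAC-seq peaks were counted that had their summit within 1 kb of either end of the gene (gene-end peaks) and that had it inside the gene or within 25 kb of it (window peaks). The members comprise 3 adherens junction genes, 9 desmosome genes, 6 tight junction genes, 8 basement membrane and hemidesmosome genes, and 4 genes of surface proteases and their inhibitors.

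ATAC-seq maps open chromatin by letting a transposase cut and tag DNA that is accessible in the nucleus, and the study applied its Omni-ATAC form to 7 mouse libraries in 5 groups. At embryonic day 11.5, the outer layer of cells (ectoderm) of the first pharyngeal arches was freed from the mesenchyme with Dispase II and gave 2 libraries. Sox2+ dental epithelial stem cells of postnatal day 2 were sorted by FACS from the dissociated labial cervical loop of the lower incisor and gave 2 libraries. Whole lower incisor, whole lower first molar and whole upper first molar of postnatal day 2 gave 1 library each. The sort relied on GFP under the endogenous Sox2 promoter, so it selects by 1 gene's activity. The ectoderm was separated by hand, and the whole teeth mix epithelium with all other tissue of the tooth. Strain, sex and the number of pooled animals are not given in the sources used here, no group is described as treated or mutant beyond the reporter, and age differs between the ectoderm and all other groups. Nothing says that replicates came from separate animals, and whole teeth have no replicate, so every difference that rests on one of them lacks a replicate check.

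In an epithelium, adherens junctions join the actin belts of neighbouring cells through cadherins, desmosomes join their keratin filaments, and tight junctions seal the space between them. Hemidesmosomes fasten the basal cells to laminin in the basement membrane through the α6β4 integrin. The matriptase and prostasin proteases and their Kunitz inhibitors act at the epithelial surface and are known for their part in barrier formation. In teeth, such contacts hold the enamel epithelium together and bind it to the matrix or to the dental mesenchyme beneath.

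Of the 30 members, 16 had RefSeq promoter windows, 22 in all, each from 250 bases before to 50 bases after a transcription start. The 250 bases before the start are printed for 8 starts that stand for the patterns described further on, as RefSeq gives them for GRCm38.p6, 5′ to 3′ on the strand of the gene. Capitals mark matches on either strand to the GC box GGGCGG, the E-box CAGGTG or the AP-2 type palindrome GCCNNNGGC. The first group had the start under a peak in all 7 libraries: Jup at chr11:100397791-100398040 (minus strand), Dsp at chr13:38151044-38151293 (plus), Cldn1 at chr16:26371840-26372089 (minus) and Lama5 at chr2:180225860-180226109 (minus). For the others the ectoderm libraries both had such a peak and the Sox2+ libraries both lacked it: Cldn3 at chr5:134985964-134986213 (plus), Cldn7 at chr11:69964529-69964778 (plus), the inner start of Tjp3 at chr10:81291268-81291517 (minus) and Col17a1 at chr19:47692043-47692292 (minus), the last of these also in both molars.
Jup: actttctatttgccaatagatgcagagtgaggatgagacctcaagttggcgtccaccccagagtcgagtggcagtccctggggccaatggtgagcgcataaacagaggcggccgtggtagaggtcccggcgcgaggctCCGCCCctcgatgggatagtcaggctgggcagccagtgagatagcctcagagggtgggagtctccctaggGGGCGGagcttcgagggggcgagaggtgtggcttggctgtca
Dsp: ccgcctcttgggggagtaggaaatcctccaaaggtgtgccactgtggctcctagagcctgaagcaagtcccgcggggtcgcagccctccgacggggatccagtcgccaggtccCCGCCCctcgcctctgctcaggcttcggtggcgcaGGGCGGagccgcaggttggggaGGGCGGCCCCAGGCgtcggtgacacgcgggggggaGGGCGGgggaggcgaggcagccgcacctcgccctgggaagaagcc
Cldn1: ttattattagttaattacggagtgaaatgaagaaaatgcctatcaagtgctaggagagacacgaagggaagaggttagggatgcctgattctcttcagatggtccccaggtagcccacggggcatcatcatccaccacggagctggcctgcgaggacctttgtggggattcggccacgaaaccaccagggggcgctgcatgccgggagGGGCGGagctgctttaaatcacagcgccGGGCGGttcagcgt
Lama5: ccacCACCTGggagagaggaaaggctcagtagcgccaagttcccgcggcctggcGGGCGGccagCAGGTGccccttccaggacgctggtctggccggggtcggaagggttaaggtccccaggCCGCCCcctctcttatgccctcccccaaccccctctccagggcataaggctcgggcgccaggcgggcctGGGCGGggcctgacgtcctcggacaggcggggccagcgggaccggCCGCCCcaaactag
Cldn3: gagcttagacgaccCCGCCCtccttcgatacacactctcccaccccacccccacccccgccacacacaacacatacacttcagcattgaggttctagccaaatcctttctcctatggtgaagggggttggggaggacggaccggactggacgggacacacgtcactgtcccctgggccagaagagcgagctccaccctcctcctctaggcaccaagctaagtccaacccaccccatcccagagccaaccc
Cldn7: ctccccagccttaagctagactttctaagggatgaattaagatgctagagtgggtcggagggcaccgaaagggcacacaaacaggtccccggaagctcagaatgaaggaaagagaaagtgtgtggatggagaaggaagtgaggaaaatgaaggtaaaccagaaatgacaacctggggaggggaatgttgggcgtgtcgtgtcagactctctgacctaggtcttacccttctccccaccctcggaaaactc
Tjp3: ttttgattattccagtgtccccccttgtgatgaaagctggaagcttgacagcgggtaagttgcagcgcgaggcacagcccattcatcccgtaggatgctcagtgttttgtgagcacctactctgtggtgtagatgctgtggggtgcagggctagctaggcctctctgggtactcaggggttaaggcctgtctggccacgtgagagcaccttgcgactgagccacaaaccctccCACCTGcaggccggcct
Col17a1: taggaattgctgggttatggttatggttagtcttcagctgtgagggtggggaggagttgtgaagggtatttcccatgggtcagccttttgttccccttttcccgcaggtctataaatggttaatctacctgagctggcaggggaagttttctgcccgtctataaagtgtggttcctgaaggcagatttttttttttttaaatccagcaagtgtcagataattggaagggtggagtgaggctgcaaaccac
Over the full windows of all members, the GC box was in 7 of the 9 starts under a peak in all 7 libraries and in 2 of the 6 found in ectoderm and not in Sox2+ cells. Both Lamb3 starts, which were open in all 7, held none. The printed Cldn7 and Col17a1 stretches held no match at all, and Tjp3 held 1 E-box.

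Each library is represented by a list of peaks, from 39017 peaks in Sox2+ replicate 2 to 82461 in ectoderm replicate 1, and the read depth behind the lists is unknown. All counts were therefore made with the full lists and again with the 38000 autosomal peaks of each list that had the smallest p-values (equal-length lists). The tissue labels were set against marker genes. Of 8 epithelial markers, between 6 and 7 had a gene-end peak in each library with the full lists. Their median number of window peaks was 13.5 and 9 in ectoderm, 4.5 and 5 in Sox2+ cells, and 6, 9.5 and 8.5 in the teeth. Of these 8, 6 had more window peaks in both ectoderm libraries than in both Sox2+ libraries and 0 had fewer (35.3% and 3.62% of all genes). At equal length these were 4 and 1 (17.9% and 15.2%). Of 6 dental epithelium markers, 5 had more window peaks in both ectoderm libraries than in both Sox2+ libraries, and 1, Ambn, had fewer. At equal length these were 4 and 1, against the same shares of all genes. Sox2 itself had 10 and 4 in ectoderm against 3 and 1, and 2 and 3 against 2 and 1 at equal length. Shh had a gene-end peak in both ectoderm libraries and both molars, and none in Sox2+ cells or incisor. Ambn, which encodes the enamel protein ameloblastin, had a gene-end peak in all 5 libraries of postnatal day 2 and in neither ectoderm library. Of 8 mesenchymal markers, 5 and 4 had a gene-end peak in ectoderm, 6 and 5 in Sox2+ cells, 6 in incisor, and 5 and 6 in the lower and upper molars. Their median number of window peaks was 2 and 2 in ectoderm, 4.5 and 4 in Sox2+ cells, and 6, 5 and 5 in the teeth. Col1a1, which encodes a collagen I chain, had 5 and 3 window peaks in ectoderm against 8 and 10 in the sorted Sox2+ cells, and Pdgfra, a receptor of mesenchymal cells, had 4 and 3 against 9 and 9. Dspp, which marks the dentin-forming odontoblasts, had none in either ectoderm library, 0 and 2 in Sox2+ cells, 4 in incisor and 1 in each molar. Of the 8 mesenchymal markers, 3 had more window peaks in both Sox2+ libraries than in both ectoderm libraries and 0 had fewer. Twist1 had 2 in each of the 4 libraries. The part of these differences in the results below was not tested.

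At their ends, 16 of the 30 genes had a peak in all 7 libraries (50.3% of all genes did), and 11 of 30 in the equal-length lists (46.5% of all genes). Per library, 25 and 25 members had a gene-end peak in ectoderm, 21 and 22 in Sox2+ cells, 18 in incisor, and 25 in each molar. Over all genes these shares were 64.6% and 61.5%, 56.2% and 55.0%, 58.6%, 60.1% and 60.0%. Members thus exceeded the share over all genes in every library, by least in the incisor. At equal length the numbers of members were 24 and 23, 20 and 22, 14, 21 and 18, and the shares over all genes were 56.6% and 58.3%, 54.9% and 54.8%, 52.6%, 53.0% and 53.1%. The incisor, with 46.7% of members, then fell below its share. A gene-end peak in both ectoderm and both Sox2+ libraries and in no whole tooth was found for 0 members (0.0629% of all genes), and at equal length for 1, Prss8 (0.402% of all genes). In these bulk libraries, fewer cells of a type and less open chromatin per cell cannot be told apart.

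**Figure D1:**
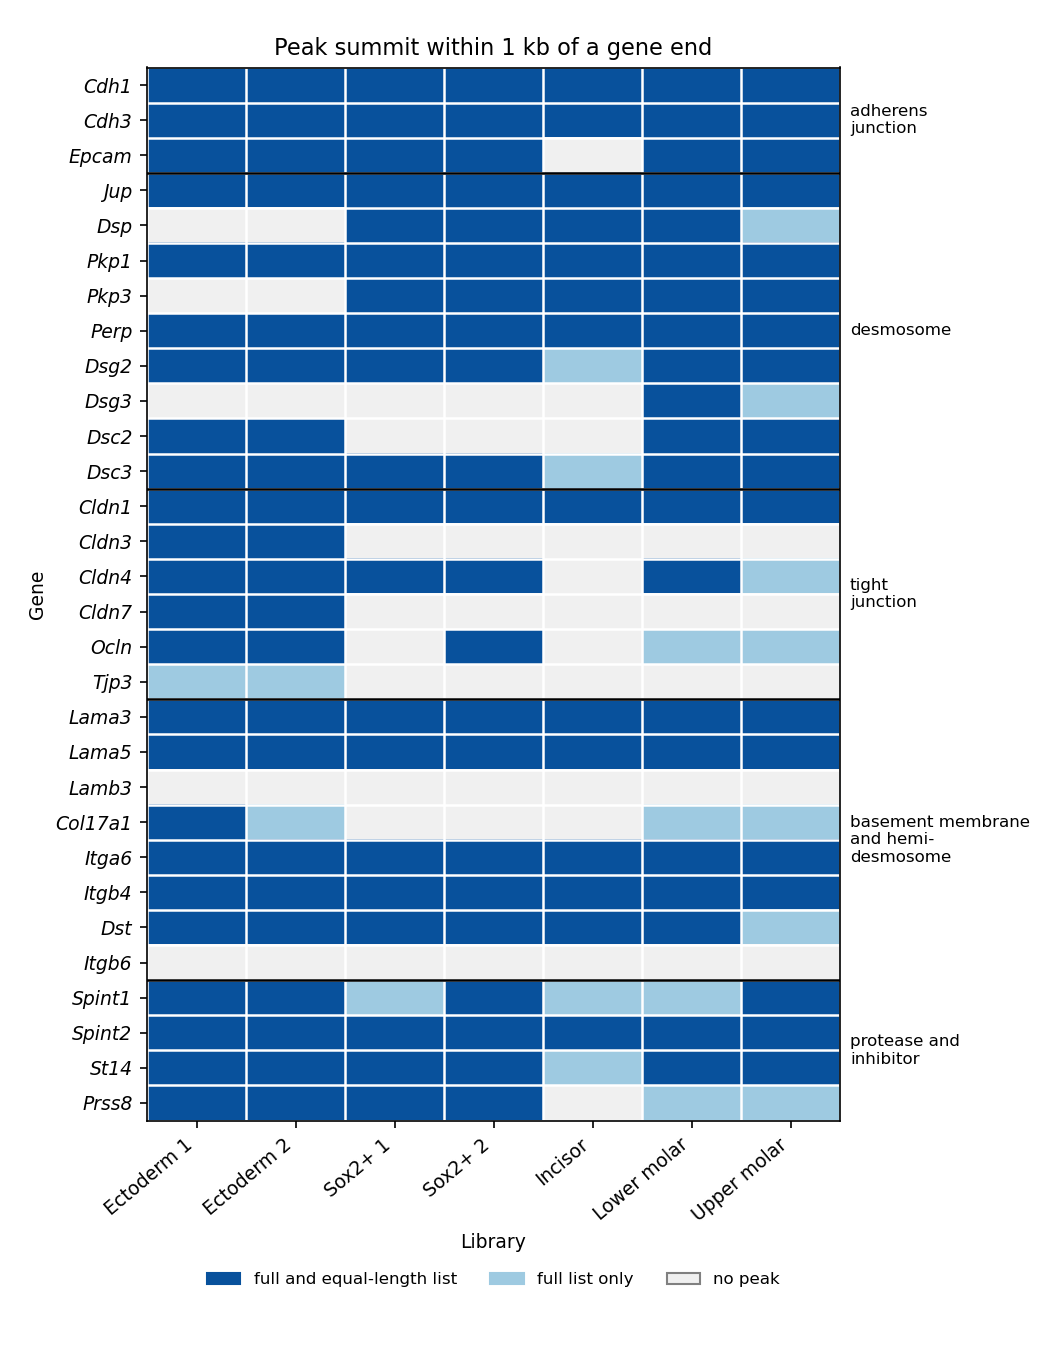
Presence of a peak summit within 1 kb of a gene end, for 30 genes (vertical axis, grouped by role) in 7 libraries (horizontal axis). Dark blue marks a peak in the full and in the equal-length list, light blue a peak in the full list only, and grey no peak. Among the tight junction genes 6 of 6 are filled in both ectoderm libraries and 1 in the incisor, and 5 and 1 of these are dark blue.

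Gene ends open in both ectoderm libraries and in neither Sox2+ library were found for 5 members, against 6.01% of all genes, and for 3 at equal length, against 3.45%. The 5 were the desmosomal cadherin Dsc2, the claudins Cldn3 and Cldn7, the tight junction scaffold Tjp3 and the hemidesmosomal collagen Col17a1, and the 3 were Dsc2, Cldn3 and Cldn7. Tight junction genes made up 3 of the 5. The reverse pattern was found for 2 members, the desmosomal plaque genes Dsp and Pkp3 (0.823% of all genes, and 1.45% at equal length). It rested on where the summit lay. With any overlap in place of the summit, or with a window of 2.5 kb, it was found for 0 members. The start of Dsp lay under a peak in all 7 libraries. An end of Sigirr lies within 2 kb of Pkp3, and ends of Apba3 and Pip5k1c lie within 2 kb of Tjp3. Peaks there may belong to a neighbour.

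Among the adherens junction genes, the ends of Cdh1 (E-cadherin) and Cdh3 (P-cadherin) were open everywhere, and Epcam, an epithelial adhesion molecule, was open everywhere but in the incisor. Cdh1 had 21 and 13 window peaks in the 2 ectoderm libraries, 8 and 5 in Sox2+ cells, 10 in incisor, 14 in lower molar and 16 in upper molar. At equal length these were 11 and 11, 7 and 5, 8, 10 and 10, so the 2 groups with replicates did not overlap in either form. Cdh3, its neighbour on chromosome 8, went the other way, with 9 and 9 window peaks in ectoderm, 10 and 12 in Sox2+ cells, and 12, 11 and 12 in the teeth. At equal length Cdh3 had 8 and 7 in ectoderm against 9 and 12. Epcam had 3 and 3 against 5 and 4, with the same values at equal length. These are small numbers of peaks, and for Cdh3 and Epcam the groups differ by 1 peak at the nearest.

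Of the 9 desmosome genes, 5 had a gene-end peak in all 7 libraries: Jup (plakoglobin), which links the cadherins to the plaque, the plaque protein Pkp1, Perp, and the cadherins Dsg2 and Dsc3. Jup had a strong gene-end peak in every list, with a deposited signal of 5823 and 5523 in ectoderm, 3648 and 3819 in Sox2+ cells, 4786 in incisor, and 5722 and 5265 in lower and upper molar. The signal of a peak is the authors' own value and is not scaled between libraries, so it is read within a list only. The region at this end, chr11:100396837-100398617, was among the highest 2.42% of its list in every library.

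The desmosomal cadherins lie side by side on chromosome 18 and had few peaks. Dsc2 (desmocollin 2) had 2 and 1 window peaks in ectoderm, 0 and 0 in Sox2+ cells, 0 in incisor and 2 in each molar. Dsg3, the desmoglein of stratified epithelia, had a gene-end peak in the 2 molars alone. Dsg2, Dsg3 and Dsc3 each had more window peaks in both molars than in any other library, with 4 and 3, 6 and 5, and 7 and 4 in lower and upper molar. Neighbouring windows here share regions, so the cadherin genes are not independent of one another.

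The plaque genes differed among themselves. Dsp, desmoplakin, which ties the plaque to keratin, had 10 and 9 window peaks in ectoderm against 6 and 4 in Sox2+ cells, and 8 and 9 against 6 and 4 at equal length. Perp, a membrane protein of desmosomes, had 8 and 6 against 3 and 4, and 5 and 5 against 3 and 4 at equal length. Pkp1 had 12 and 9 against 11 and 9 with the full lists, which overlap, but 5 and 5 against 11 and 9 at equal length.

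With the full lists the tight junction genes separated at their ends. Of the 6, 6 and 6 were open in ectoderm, 2 and 3 in Sox2+ cells, 1 in incisor and 3 in each molar. At equal length these were 5 and 5, 2 and 3, 1, and 2 and 1 in lower and upper molar. Over all genes the shares per library ran from 55.0% to 64.6%, and from 52.6% to 58.3% at equal length. Cldn1 was the gene open in all 7. Cldn3 had a gene-end peak with a signal of 4133 and 3677 in ectoderm, within the strongest 3.55% and 6.62% of those lists, and no gene-end peak in the other 5 libraries. Cldn7 had one of 3005 and 2327 in ectoderm and likewise none in the others, although an end of Elp5 lies within 2 kb of it. These 2 claudins were the members whose gene-end peak was found in the ectoderm libraries and nowhere else, together with Tjp3, whose peaks were weak (421 and 341) and dropped out of the equal-length lists.

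Cldn4, which lies next to Cldn3, had a gene-end signal of 4377 and 3824 in ectoderm and 416 and 278 in Sox2+ cells. No gene-end peak was listed for it in incisor, and the molars had 825 and 656. Ocln (occludin) had 3552 and 3611 in ectoderm, a peak of 233 in Sox2+ replicate 2 alone, none in incisor, and 825 and 342 in the molars. Both genes thus stood near the top of the ectoderm lists and further down the other lists that held them. In window peaks, Cldn3 had 7 and 7 in ectoderm, 3 and 3 in Sox2+ cells, 2 in incisor and 4 in each molar, and at equal length 5 and 5, 3 and 3, 1, 3 and 2.

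Basement membrane and hemidesmosome genes divided into 5 that were open at an end in every library and 3 that were not. The 5 were the laminin chains Lama3 and Lama5, the integrin subunits Itga6 and Itgb4, and Dst, whose epithelial product BP230 links hemidesmosomes to keratin. Ends of Ttc39c, Adrm1, Galk1 and Bend6 lie within 2 kb of an end of Lama3, Lama5, Itgb4 and Dst, respectively. Both listed RefSeq starts of Dst lay inside the gene, away from its ends. The start at position 34011595 of chromosome 1 was under a peak in all 7 libraries. The start at 34160260 had a peak of 2288 and 2234 in ectoderm and 231 in Sox2+ replicate 1, with none in replicate 2. It had 632 in incisor, and 1772 and 1587 in the molars. Col17a1, the transmembrane collagen BP180, had a gene-end peak of 877 and 241 in ectoderm, 337 in lower molar and 383 in upper molar, and none in Sox2+ cells or incisor. Its window held 6 and 5 peaks in ectoderm, 1 and 1 in Sox2+ cells, 5 in incisor and 7 in each molar. An end of Slk lies within 2 kb of that end.

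Lamb3, a chain of laminin-332, and Itgb6, the β6 partner of an integrin that activates TGF-β, had no gene-end peak in any library, as was true of 31.2% of all genes. At equal length Tjp3 joined them, which made 3 members (36.3% of all genes). Both RefSeq starts of Lamb3, at positions 193301994 and 193302243 of chromosome 1, lay inside the gene and under a peak in all 7 libraries. For Itgb6 the start at the gene end was under no peak, and the inner start at position 60673693 of chromosome 2 was under a peak in the lower molar and in ectoderm of both replicates. Itgb6 had 20 and 8 window peaks in ectoderm, 6 and 3 in Sox2+ cells, 5 in incisor, 10 in lower molar and 8 in upper molar. At equal length it had 10 and 8, 5 and 3, 2, 6 and 5. Lamb3 had 9 and 4 window peaks in ectoderm against 8 and 6 in Sox2+ cells with the full lists, which overlap. At equal length Lamb3 went the other way from Itgb6, with 4 and 4 in ectoderm, 8 and 6 in Sox2+ cells, and 9, 11 and 9 in the teeth.

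Lama3 had 16 and 10 window peaks in ectoderm, 5 and 4 in Sox2+ cells, 10 in incisor, and 16 and 15 in the molars, and 7 and 8 against 5 and 4 in the 2 groups with replicates at equal length. Dst, by far the longest member at 401 kb, had 31 and 19 in ectoderm, 16 and 10 in Sox2+ cells, 31 in incisor, and 29 and 30 in the lower and upper molars. At equal length Dst had 14 and 14 against 13 and 10, so its groups were separated by 1 peak.

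The 4 protease and inhibitor genes were St14 (matriptase), Prss8 (prostasin), and the Kunitz inhibitors Spint1 and Spint2, which restrain matriptase. With the full lists all 4 had a gene-end peak in every library except Prss8 in the incisor. At equal length Spint2 alone kept one in all 7 libraries. The numbers of these genes with one were then 4 and 4 in ectoderm, 3 and 4 in Sox2+ cells, 1 in incisor, and 2 and 3 in lower and upper molar. At the higher-coordinate end of Prss8 a peak was listed in both ectoderm libraries (2616 and 1429) and in both molars (296 and 333) and in no other library. At its lower-coordinate end peaks were listed in all libraries but the incisor, with 1788 and 680 in ectoderm, 378 and 223 in Sox2+ cells, and 290 and 250 in the molars. An end of Kat8 lies within 2 kb of Prss8. The window of Prss8 held 9 and 9 peaks in ectoderm, 5 and 6 in Sox2+ cells, 5 in incisor and 6 in each molar, and 8 and 8 against 5 and 6 at equal length.

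The 16 genes with a gene-end peak in every library allow a further description, because the same 10395 genes of the whole annotation also have one in every library and can be ranked by peak signal within each. On this scale a value of 50 is the middle of those genes. The members' median percentile was 55.9 and 56.5 in ectoderm, 17.9 and 15.0 in Sox2+ cells, 15.5 in incisor, 28.2 in lower molar and 33.4 in upper molar. The 8 of these that are junction genes had medians of 38.1 and 34.3 in ectoderm, 28.6 and 15.0 in Sox2+ cells, 14.6 in incisor, and 37.1 and 38.1 in the molars. The 8 basement membrane, hemidesmosome, protease and inhibitor genes had 57.9 and 59.1, 8.72 and 19.3, 17.9, and 21.6 and 16.6. By these medians the second set ranked higher in ectoderm than in every later library, while the junction genes ranked about as high in the molars as in ectoderm. For 10 of the 16 both ectoderm percentiles were above both Sox2+ percentiles, against 27.8% of the 10395 genes, and for 0 of 16 the reverse held, against 33.2%. The 16 were picked for having a peak in all libraries, not for its strength, and this ranking was added after the gene-end values had been seen.

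Spint1 had percentiles of 69.9 and 63.1 in ectoderm, 0.192 and 5.15 in Sox2+ cells, 4.15 in incisor, 20.6 in lower molar and 14.7 in upper molar. St14 had 51.8 and 56.2 in ectoderm and at most 6.17 in any later library. Spint2 had 64.3 and 61.5 in ectoderm, 6.89 and 11.3 in Sox2+ cells, and 22.7 and 18.5 in the lower and upper molars. The protease matriptase and both of its inhibitors thus had ends that ranked above the middle in ectoderm and far below it in every later library.

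Cdh1 had percentiles of 76.3 and 65.1 in ectoderm, 17.2 and 16.3 in Sox2+ cells, 18.9 in incisor, 45.9 in lower molar and 38.8 in upper molar. Lama5, a laminin chain of most epithelial basement membranes, had 93.3 and 88.8, 27.7 and 55.8, 29.7, 76.7 and 82.1 in the same order. Itgb4, the hemidesmosomal β4 integrin, had 55.8 and 65.0, 45.8 and 33.7, 37.3, 89.2 and 70.8, and so was highest in the molars. Jup stayed between 90.3 and 95.4 in all 7 libraries. Itga6 (60.0 and 56.8 against 10.6 and 27.3), Perp (55.9 and 48.0 against 41.7 and 19.8), Cdh3 (89.7 and 90.5 against 65.7 and 46.6) and Lama3 (10.8 and 12.3 against 2.00 and 4.18) completed the 10.

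**Figure D2:**
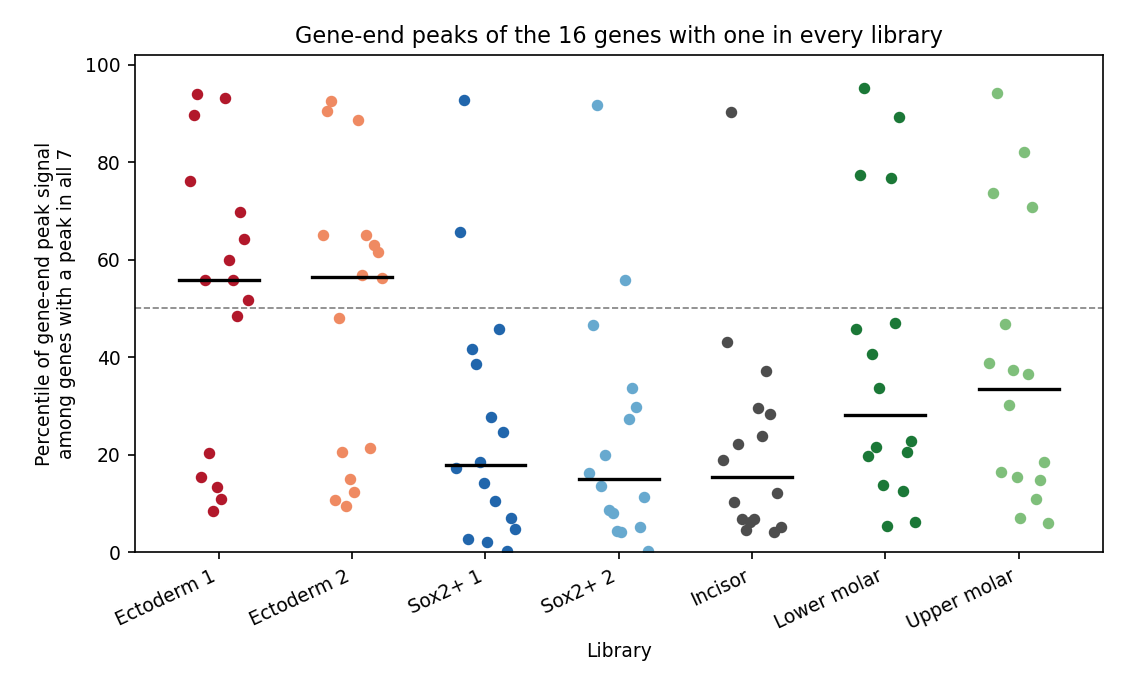
Percentile of the strongest gene-end peak's signal among the 10395 genes with a gene-end peak in all 7 libraries (vertical axis), for the 16 members among them (points) in each library (horizontal axis). Black bars are medians and the dashed line is the middle of all such genes. The medians are 55.9 and 56.5 in ectoderm and between 15.0 and 33.4 in the other 5 libraries.

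Over whole windows, 16 of 30 members had more peaks in both ectoderm libraries than in both Sox2+ libraries (35.3% of all genes did), and 3 had fewer (3.62% of all genes). With equal-length lists the numbers were 11 (17.9% of all genes) and 7 (15.2%). The members' median was 9 and 6.5 peaks in ectoderm, 5 and 4 in Sox2+ cells, 5 in incisor, 8.5 in lower molar and 7.5 in upper molar, against 4 and 3, 3 and 2, 3, 4 and 4 over all genes. Members are longer than most genes, with a median length of 37.6 kb against 17.5 kb, and so have larger windows. At equal length the medians drew together, to 5 and 5, 5 and 4, 3.5, 5 and 5. The sums at equal length were 160 and 164, 153 and 147, 139, 174 and 159 peaks, so the windows as a whole held similar numbers of the strongest peaks in every library.

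For 14 members the windows of the 2 groups with replicates did not overlap in either kind of list, with the same direction in both. Of these, 11 had more peaks in ectoderm (17.1% of all genes did) and 3 had more in Sox2+ cells (3.37%). The differences of the group means with the full lists were led by Dst (12 more peaks in ectoderm), Cdh1 (10.5), Itgb6 (9.5) and Lama3 (8.5). Dsp and Col17a1 followed with 4.5 each, Cldn3 with 4, Perp and Prss8 with 3.5 each, and Cldn7 with 2. Cdh3 and Epcam had differences of −2 and −1.5. The ectoderm replicates differed widely in list length, which shows in Dst, Cdh1, Itgb6 and Lama3, where replicate 1 alone had 31, 21, 20 and 16 peaks and replicate 2 had 19, 13, 8 and 10.

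**Figure D3:**
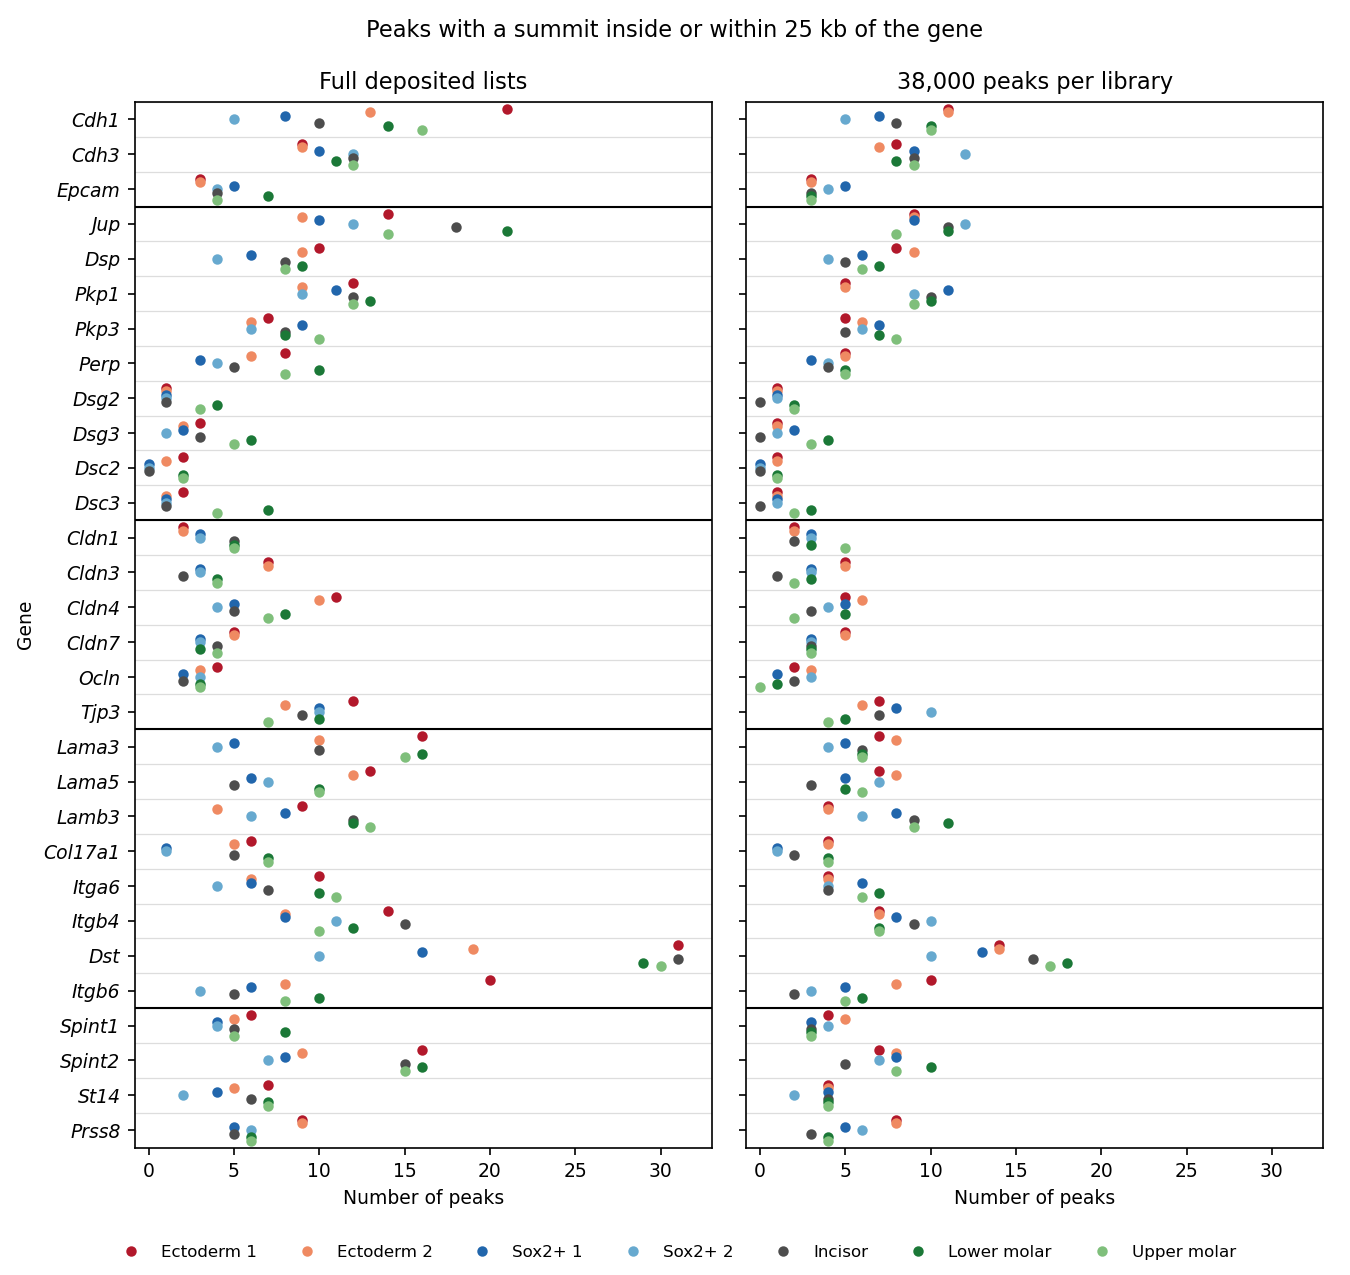
Number of peaks inside or within 25 kb of each of 30 genes (horizontal axis), with the full lists on the left and 38000 peaks per library on the right. Each point is 1 library, in the colour given below the panels. Cdh1 has 21 and 13 peaks in ectoderm against 8 and 5 in Sox2+ cells on the left, and 11 and 11 against 7 and 5 on the right.

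When the 7 lists were merged, the members' windows held 396 regions, 7 of which lay in the windows of 2 members, and 278 regions at equal length. Regions present in all 7 libraries numbered 89, 22.5% of the members' regions against 17.2% of the regions in all genes' windows. At equal length they numbered 67, and the shares were nearer, at 24.1% against 22.9%. Those held by both ectoderm lists but by neither Sox2+ list numbered 69, or 17.4%, the same as the 17.4% in all genes' windows. At equal length these numbered 43 (15.5% against 14.7%). The reverse held for 17, or 4.29%, against 5.71%, and for 24 (8.63% against 11.4%) at equal length. Regions in all 5 libraries of postnatal day 2 and in no ectoderm library numbered 12, or 3.03%, against 4.44%, and 14 (5.04% against 5.99%) at equal length. By this measure the members' windows did not stand apart from those of other genes in the contrast of ectoderm with Sox2+ cells.

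The whole teeth divided those regions. Of the 69 found in ectoderm and not in Sox2+ cells, 11 (15.9%) had a peak in incisor and 27 (39.1%) had one in both molars, while 29 (42.0%) had a peak in no tooth. Over all genes these shares of such regions were 14.6%, 24.5% and 63.1%. At equal length the members had 6, 11 (25.6%) and 28 (65.1%) of 43, and the shares over all genes were 5.25%, 10.8% and 80.8%. Regions shared by both ectoderm libraries and both molars and missing from Sox2+ cells and incisor numbered 17, or 4.29% of the members' regions against 2.40% over all genes, and 7 (2.52% against 1.17%) at equal length. Of the 17 regions found in Sox2+ cells and not in ectoderm, 15 (88.2%) had a peak in incisor and 13 (76.5%) in both molars, against 91.8% and 81.5% over all genes. None of the 17 lay at a member's gene end and 9 lay inside a gene body. Of the 69, 6 lay at a member's gene end and 43 inside a gene body.

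The regions with these patterns that stood highest by signal are named here, and not all of them ranked high in their lists. The strongest found in ectoderm and in no other library covered the start and most of the body of Cldn3, at chr5:134985234-134987273. Another covered the start of Cldn7, at chr11:69964691-69965758, and a second Cldn7 region beside it, at chr11:69965902-69967187, was also listed in the upper molar. Inside Lama5 the region chr2:180219644-180220758 had signals of 2565 and 1415 in ectoderm and no peak elsewhere. In Itgb6 the region chr2:60672556-60673875, which holds the inner start, had 1863 and 1329. In the ectoderm lists of 82461 and 50792 peaks, the Cldn3 region ranked 2925 and 3360 by signal and the Itgb6 region 14834 and 14981.

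Among those found in Sox2+ cells and not in ectoderm, the strongest lay inside Lamb3, at chr1:193338121-193339204, with signals of 1689 and 1516 in Sox2+ cells, 1336 in incisor, 1430 in lower molar and 1548 in upper molar. A region inside Spint2, at chr7:29276368-29277274, had 648 and 467 in Sox2+ cells and 1147, 1741 and 1947 in the teeth. Regions beside Pkp3 (chr7:141096127-141097097), Pkp1 (chr1:135925729-135926326) and Cldn4 (chr5:134960528-134961023) were likewise listed in all 3 teeth. A region inside Pkp1, chr1:135893259-135893713, was listed in the 2 Sox2+ libraries alone, with 523 and 336. In the Sox2+ lists of 42606 and 39017 peaks, this region ranked 21252 and 28329 by signal. The Lamb3 region ranked 5564 and 6926 there, and the Spint2 region 17544 and 22382.

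**Figure D4:**
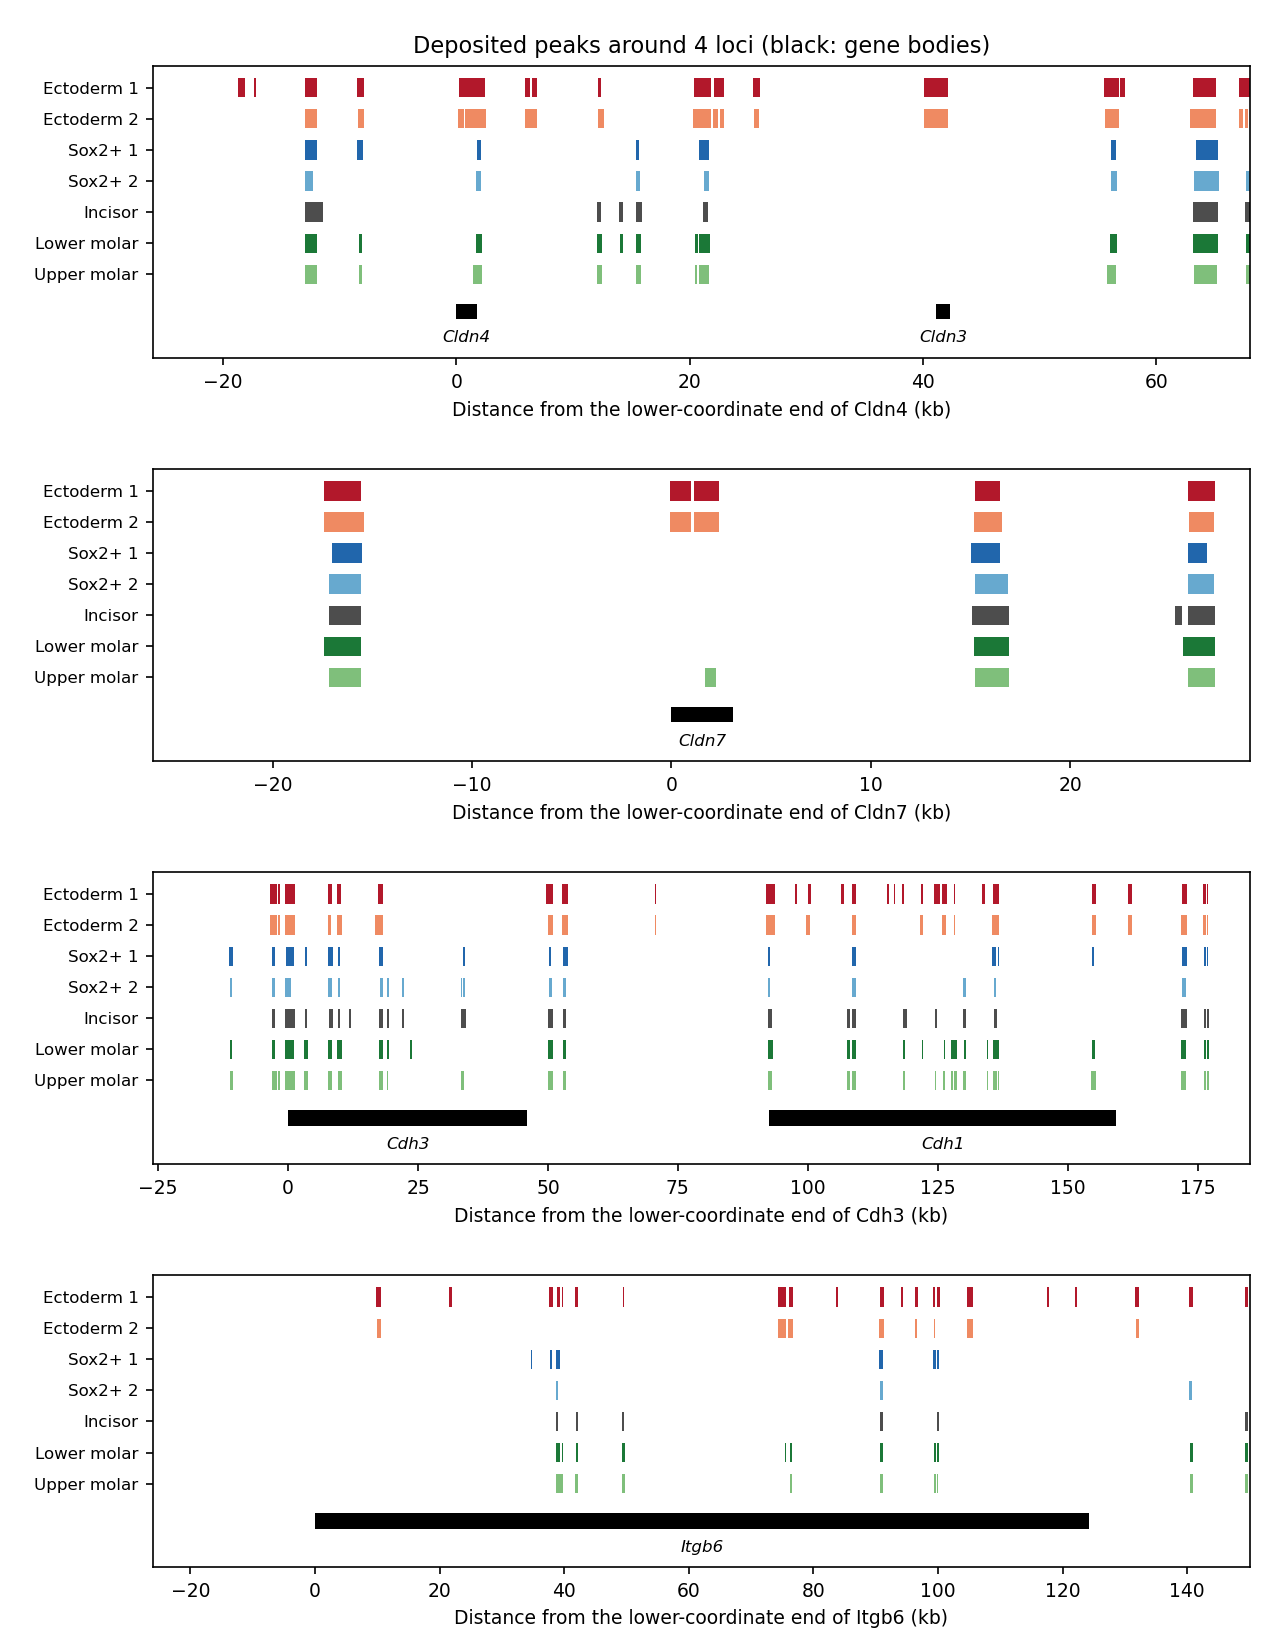
Deposited peaks (coloured bars, 1 line per library) around 4 loci, by distance in kb from the lower-coordinate end of the gene named under each panel, with gene bodies in black. The start and most of the body of Cldn3 and the start of Cldn7 are covered in the 2 ectoderm libraries and in no other library, and Cdh1 and Itgb6 hold more peaks in ectoderm than in Sox2+ cells.

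The teeth were then compared with each other and with the sorted cells. A gene-end peak in both molars and not in the incisor was found for 7 members (2.41% of all genes): Epcam, Dsg3, Dsc2, Cldn4, Ocln, Col17a1 and Prss8. The reverse was found for 0 members (1.16% of all genes), and at equal length the counts were 5 (2.06%) and 0 (1.69%). Of these 7, Epcam, Cldn4 and Prss8 had a gene-end peak in every library but the incisor, a pattern found in 0.324% of all genes. These 3 were also the members open in both Sox2+ libraries and not in the incisor (0.678% of all genes), and no member showed the reverse of that (2.75% of all genes). Both Sox2+ libraries are of cells taken from the incisor, and their lists were shorter than that of the whole tooth. At equal length 6 members (2.21%) were open in both Sox2+ libraries and not in the incisor, and 0 (0.682%) in reverse.

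In window peaks, 16 members had more in both molars than in the incisor (27.7% of all genes) and 2 had fewer (16.4%). At equal length these numbers were 17 (17.9%) and 3 (18.5%). Cdh1 and Lama5 each had 5 fewer peaks in incisor than the mean of the molars, and Dsc3 had 4.5 fewer. Against the incisor, Sox2+ cells had more window peaks for 3 members (2.62%) and fewer for 17 (41.4%) with full lists, but more for 13 (15.1%) and fewer for 5 (12.1%) at equal length, so the direction turned with list length. With full lists, Dst had 18 fewer peaks in Sox2+ cells than in incisor and 16.5 fewer than the mean of the molars. Lama3 had 5.5 fewer than in incisor and 11 fewer than in the molars, and Cdh1 had 8.5 fewer than in the molars. Spint2 had 8 and 7 peaks in Sox2+ cells against 15 in incisor, but 8 and 7 against 5 at equal length, so that its direction turned. The lower molar had more window peaks than the upper for 15 members (27% of all genes) and fewer for 7 (17.9%), and 14 (16.6%) and 4 (15%) at equal length. No replicate shows how far 2 libraries of 1 tooth would differ.

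In gene-end percentiles, 14 of the 16 ubiquitous members stood higher in both molars than in the incisor (41.1% of the 10395 genes), and 1, Dst, stood lower (39.9%). Between Sox2+ cells and incisor 4 of 16 stood higher in both sorted libraries (37.2%) and 4 lower (28.7%). With the full lists, mesenchymal markers had a median of 6 window peaks in incisor against 5 and 5 in the molars, and epithelial markers 6 against 9.5 and 8.5. At equal length the mesenchymal medians were 3.5 against 1 and 2, and the epithelial ones 4.5 against 5.5 and 5.5. The part of these in the difference between teeth was not tested.

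At the level of transcription starts, 20 and 21 of the members' 22 RefSeq starts lay under a peak in ectoderm, 12 and 13 in Sox2+ cells, 10 in incisor, 16 in lower molar and 15 in upper molar. Of all 31396 RefSeq starts, 47.3% and 45.4%, 39.9% and 39.6%, 42.9%, 43.7% and 43.5% did. At equal length 19 and 18 of the 22 lay under a peak in ectoderm, and 11 and 13 in Sox2+ cells. The incisor had 9 and the lower and upper molars 10 and 11, so that the molars no longer stood above Sox2+ cells. Of all starts, 42.0% and 43.2%, 39.0% and 39.6%, 39.2%, 39.2% and 39.1% did at equal length. The incisor, with 40.9% of the members' starts, and the lower molar, with 45.5%, then stood nearest to the share over all starts. Starts covered in ectoderm (both libraries) but not in Sox2+ cells (either library) were 6 of 22 (27.3%) with the full lists, against 4.96% of all, and 4 (18.2%) at equal length, against 3.19%. The windows of 1 gene can overlap, so these 22 are not independent.

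Starts rich in the dinucleotide CG are open in most tissues as a rule. The members' windows held 2 to 31 CG, and the median over all windows was 7. The windows open in all 7 libraries included 1 of Dst (31 CG) and those of Spint1 (28), Dsp (27), Spint2 (26), Lama5 (24), Cldn1 (15) and Jup (14). These were 7 of the 16 member windows with at least the median number of CG (43.8%), against 66.4% of all such windows. At equal length 6 of the 16 (37.5%) were open in all 7, against 62.2%. Both Lamb3 starts were open in all 7 with only 2 and 5 CG, whereas 2.77% of all starts below the median of 7 were. Cldn3 (9 CG), Cldn7 (7 and 17) and Tjp3 (9 at the inner start) were the starts open in both ectoderm libraries and in no other library.

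**Figure D5:**
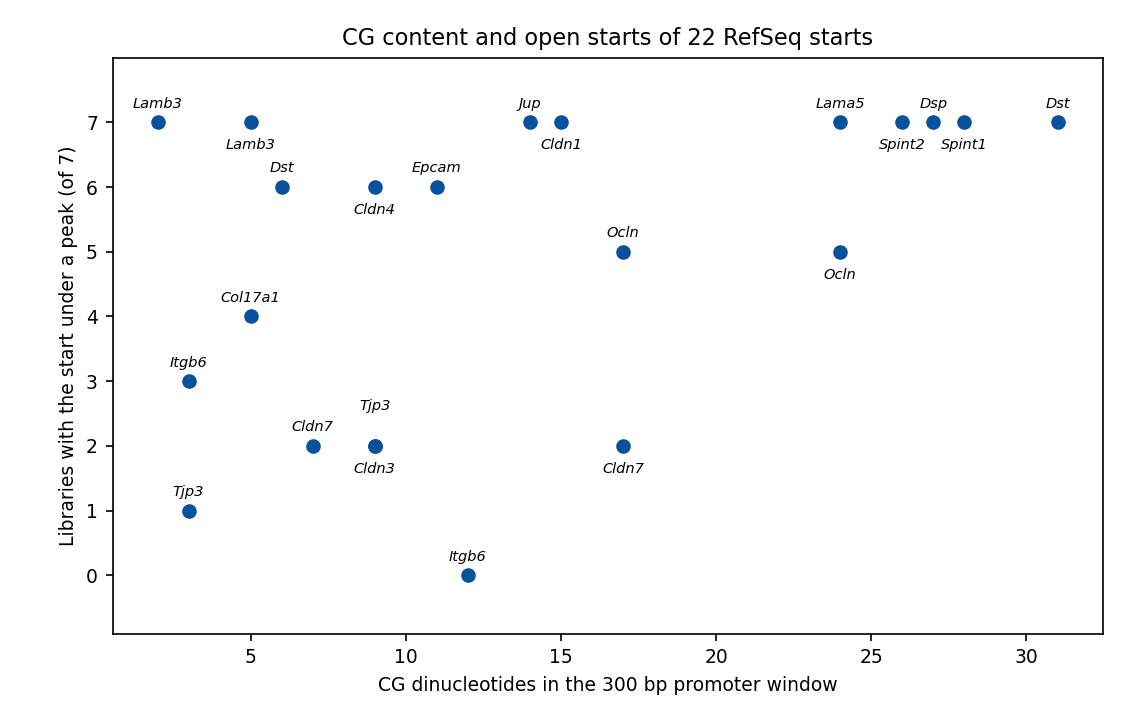
Number of libraries in which a start lay under a peak (vertical axis, of 7) against the number of CG dinucleotides in its 300 bp RefSeq window (horizontal axis), for the 22 windows of 16 genes. Windows with 24 or more CG are open in 7 libraries but for 1 start of Ocln, and the Lamb3 starts, with 2 and 5 CG, are open in all 7.

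Letters of 5 motifs were searched on both strands of the 300-base windows. CAGGTG, the E-box read by Snail and Zeb factors, was in 15 of 22 windows, of 12 of the 16 genes, against 20.5% of all windows. The GC box GGGCGG was in 13 windows, of 12 genes, against 36.0%. All 13 were among the 16 member windows with at least the median number of CG, and 62.3% of all windows of that kind held it, against 6.90% of the others. The E-box was in 19.6% and 21.4% of those 2 kinds of window. The AP-2 type palindrome GCCNNNGGC was in 5 (16.7% of all), the AP-1 type TGANTCA in 2 (7.84%), and the Grainyhead type AACCNGTT in 0 (2.09%). Matches of the GC box and the AP-2 palindrome can overlap, as in the Dsp stretch. A match describes the letters and is not evidence that a factor binds.

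The remaining genes of these pathways were counted from lists that hold no member. Of 13 other tight junction genes, 12 and 11 had a gene-end peak in ectoderm, 6 and 4 in Sox2+ cells, 4 in incisor, and 7 and 8 in the molars. At equal length these numbers were 10 and 11, 6 and 4, 3, and 5 and 6. With the full lists 5 of the 13 were open in ectoderm (both libraries) but in no Sox2+ library and 0 in reverse, against 6.01% and 0.823% of all genes. At equal length they were 4 and 0, against 3.45% and 1.45%, with Cgn (cingulin) and Cldn6 among the 4 and Tjp1 (ZO-1) no longer. Cldn6 and Cldn9, counted in both cases, had the same number of window peaks as each other in every library. They may therefore rest on the same peaks. Of 10 other epithelial surface protease genes the numbers with a gene-end peak were 8 and 8, 4 and 4, 3, and 6 and 6. At equal length they were 7 and 5, 4 and 4, 2, and 5 and 4, so ectoderm replicate 2 stood level with the lower molar. With the full lists 4 of the 10 were open in both ectoderm libraries and no Sox2+ library and 0 in reverse. At equal length it was 1 in place of 4, against the same shares of all genes. Klk5, a kallikrein of the epidermis, had 6 and 5 window peaks in ectoderm and 0 in each of the other 5 libraries.

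At their ends the other 3 classes did not separate in this way. Over all genes the shares with a gene-end peak were 64.6% and 61.5% in ectoderm, 56.2% and 55.0% in Sox2+ cells, and 58.6%, 60.1% and 60.0% in the teeth. At equal length they were 56.6% and 58.3%, 54.9% and 54.8%, and 52.6%, 53.0% and 53.1%. Of 12 other adherens and polarity genes, 11 and 11 had a gene-end peak in ectoderm, 11 and 10 in Sox2+ cells, and 10, 10 and 11 in the teeth. At equal length these were 11 and 11, 11 and 10, and 9, 10 and 10. Of 21 other basement membrane and hemidesmosome genes the numbers were 16 and 18, 19 and 17, and 19 in each tooth. At equal length these were 16 and 17, 18 and 17, and 16, 17 and 17. Of 9 other desmosome genes the numbers were 4 and 4, 4 and 3, and 2, 3 and 3, and at equal length 4 and 4, 3 and 3, and 2, 3 and 3. Open in both ectoderm libraries and in no Sox2+ library were 0, 0 and 1 genes of these classes, in either kind of list (6.01% of all genes, 3.45% at equal length). Of 17 adhesion genes of mesenchyme and endothelium, 12 and 12 were open in ectoderm, 10 and 11 in Sox2+ cells, and 13, 13 and 12 in the teeth. At equal length these were 8 and 10, 10 and 11, and 10, 12 and 10. In window peaks, 8 adherens and polarity genes were higher in both ectoderm than in both Sox2+ libraries and 0 lower (35.3% and 3.62% of all genes). At equal length they were 3 and 1 (17.9% and 15.2%). The desmosome genes had 4 higher and 2 lower, and 3 and 2 at equal length. The basement membrane and hemidesmosome genes had 4 and 2, and 2 and 6 at equal length.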

How the data were processed

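The data were 7 deposited peak lists in narrowPeak form, 1 per library. The submitters' processing notes name FastQC, Trimmomatic, Bowtie2, deepTools and Genrich and the build mm10, with no versions. Thresholds, read filters and any shift for the transposase are not given in the sources used here. The authors' signal of a peak and their −log10 of its p-value are deposited per peak and were used only to rank peaks within a list. The q-value field held −1 throughout and was not used. No file gives reads, so depth is unknown and no count model was possible.

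Peaks on the 19 autosomes were placed by summit against RefSeq genes of GRCm38.p6, which shares its coordinates with mm10. Strand was known for 16 members, so gene ends are both ends of a gene. Lists were merged where peaks shared at least 1 bp. The equal-length lists took 38000 peaks per library by p-value. Alternatives were equal length by signal, the stronger 50% of each list, windows of 500 bp, 2.5 kb, 10 kb and 50 kb, any overlap in place of the summit, 50% coverage of regions, and each replicate left out. Counting was tested on simulated data. With 2 replicates at most per group no test across genes was made, and the text gives counts beside the same over all genes.

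Members, lists and alternatives were chosen with earlier results of these data known. All members are counted. Named with values were members whose gene-end status differed between ectoderm and Sox2+ libraries, those with a gene-end peak in all libraries or in none, up to 12 by difference of window means in that contrast, up to 3 per contrast among the teeth and Sox2+ cells, and regions by signal rank. Other named members complete a class and were chosen after their values were seen. Python 3.11.15, pandas 2.3.3, numpy 2.4.6 and matplotlib 3.10.9 were used.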

Additional observations from a re-analysis of the deposited data

How the results depend on the processing

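Of 126 planned recomputations 90 stayed within 1.5 times of the reported count and 36 moved further. Of 32 added after seeing the data, 24 stayed and 8 moved. No paired analysis was possible because the results come from counts with no test, and nothing says that replicate numbers pair the libraries. With 38000 peaks per list by p-value or by signal, members with an end open in ectoderm and not Sox2+ cells numbered 3 and 3 in place of 5, those with more window peaks in Sox2+ cells than ectoderm 7 and 7 in place of 3, than incisor 13 and 10 in place of 3, those with more in incisor than Sox2+ cells 5 and 5 in place of 17, in upper than lower molar 4 and 4 in place of 7, and regions in ectoderm and not Sox2+ cells 43 and 43 in place of 69. By signal, ends open in Sox2+ cells and not ectoderm numbered 1, and members with more window peaks in incisor than molars 5 in place of 2. With the stronger 50% of each list, ends open in all 7 numbered 6 in place of 16, in ectoderm and not Sox2+ cells 8, in reverse 1, window counts higher in Sox2+ cells than ectoderm 0, than incisor 0, in incisor than Sox2+ cells 11, in upper than lower molar 1, and regions in Sox2+ cells and not ectoderm 4 in place of 17. The 500 bp window gave 3 ends open in ectoderm and not Sox2+ cells and 1 in reverse, and any overlap or 2.5 kb gave 0 in reverse. The 50 kb window gave 1 member higher in Sox2+ cells than ectoderm and 1 higher than incisor. Requiring 50% coverage gave 8 regions in Sox2+ cells and not ectoderm. Leaving out 1 replicate moved members with more window peaks in ectoderm than Sox2+ cells between 16 and 25 (25 without ectoderm replicate 2), the reverse between 3 and 6 (6 without ectoderm replicate 1), more in Sox2+ cells than incisor between 3 and 6, more in incisor than Sox2+ cells between 17 and 20, regions in ectoderm and not Sox2+ cells between 71 and 132 (132 without ectoderm replicate 2), and regions in reverse between 17 and 31 (31 and 30 without Sox2+ replicates 1 and 2). Ends open in all 7 stayed at 16, in ectoderm and not Sox2+ cells at 5 to 6, and in reverse at 2. The cause of these shifts was not tested beyond the settings themselves. Unknown depth limits every absence: a missing peak is one that the authors' caller did not list.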
